A study of Mus musculus with 10 samples.

Results

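The TGF-beta ligands, their receptors and co-receptors, and a pair of SMAD proteins that act below them, were followed across 10 mouse mammary carcinoma lines, with 1 RNA library per line. The 10 genes are Tgfb1, Tgfb2, Tgfb3, Tgfbr1, Tgfbr2, Acvrl1, Tgfbr3, Eng, Smad3 and Smad7. They were taken by name from a table of 55417 named genes, and all 10 were found. The metastasis group holds lines 5, 3 and 7, which came from tumours in the lung. The CTC group holds lines 1, 3 and 6, made from circulating tumour cells, and the primary group holds lines 5, 7 and 8, made from fat pad xenografts. They are set against the parental line, 4T1-hHER2, a 4T1 mammary carcinoma line (strain label BALB/cfC3H) that a lentivirus made stably express human HER2 with luciferase. Per the labels, all 9 derived lines, primary lines included, go back to CTCs taken from NSG (NOD-SCID-GAMMA) mice with metastases of an orthotopic tumour of this line. NSG mice lack mature T, B and NK cells and keep stroma, vessels and myeloid cells. The promoter of the insert, whether a line is 1 clone, the age of the mice and any treatment are not given in the sources used here. Lines are named by group and title number, and the labels do not say what that number stands for.

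TGF-beta is secreted in a latent complex that latent-TGF-beta-binding proteins tether to the matrix, and integrins and proteases release it. The free dimer binds the kinase receptor TGFBR2, which recruits and phosphorylates TGFBR1 (ALK5), and TGFBR1 phosphorylates SMAD2 and SMAD3. SMAD7 is induced by the pathway and shuts TGFBR1 down. Betaglycan (Tgfbr3) and endoglin (Eng) are co-receptors without kinase activity: betaglycan presents ligand, TGF-beta2 above all, to TGFBR2, and endoglin works with ALK1 (Acvrl1), chiefly in endothelium. In mammary tumours the pathway is known to restrain growth early and to favour invasion and spread later, and 4T1 is a widely used model of that later phase.

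Library totals lay between 79869760 and 97722716 estimated counts. Levels are given as CPM, estimated counts put on 1 common library size by TMM factors, which correct for differences in library composition. Some epithelial markers were present in every line, Krt18 being the most abundant at 303 to 1460 CPM. The sum over the 12 markers was 1350 to 2950 CPM in metastasis lines, 1580 to 2700 in CTC lines, 2180 to 4180 in primary lines and 1870 in the parental line. In metastasis 3, Krt8 and Krt18 were at 1230 and 1320 CPM. Other markers of the list were near or at 0 in some lines. Esrp1 was at 0.105 CPM in metastasis 3, Krt19 at 0.774 CPM in CTC 3, Krt14 at 0 in CTC 1 and metastasis 3, and Krt5 at 0 throughout. Among 18 endothelial markers, 13 stayed under 1 CPM in every library and 3 were at 0 in all of them. Flt1, the VEGF receptor with the highest level of the list, ran between 29.5 and 132 CPM. Pecam1 reached at most 0.623 CPM and Cdh5 at most 1.1 CPM. The summed leukocyte markers came to 8.17 to 15.3 CPM in metastasis lines, 11.5 to 12.8 in CTC lines, 12 to 17.8 in primary lines and 6.06 in the parental line, led by Cd14 at up to 15.5 CPM. The lung epithelial markers summed to at most 4.8 CPM in any library, with Foxj1 the highest at 3.62 CPM. These are bulk libraries, so fewer cells that express a gene and less RNA of it per cell cannot be told apart.

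The proximal promoters of 6 of the 10 genes were taken from the RefSeq table (GRCm38.p6). That table held none for Tgfb3, Tgfbr3 and Acvrl1, while Smad7 was left out of the search and is not reported here. The 6 genes gave 7 windows of 250 bases before and 50 bases after a transcription start. They are shown because Tgfb1, Tgfbr1 and Smad3 varied together across the lines, as described below, while Tgfb2 did not. Capitals mark the SMAD box CAGAC and the GC box GGGCGG, each searched on both strands, and no match of one shared a base with the other. Tgfb1 lies at chr7:25686752-25687051 on the plus strand, Tgfbr1 at chr4:47352972-47353271 on the plus strand, Smad3 at chr9:63757945-63758244 on the minus strand and Tgfb2 at chr1:186705940-186706239 on the minus strand.
Tgfb1: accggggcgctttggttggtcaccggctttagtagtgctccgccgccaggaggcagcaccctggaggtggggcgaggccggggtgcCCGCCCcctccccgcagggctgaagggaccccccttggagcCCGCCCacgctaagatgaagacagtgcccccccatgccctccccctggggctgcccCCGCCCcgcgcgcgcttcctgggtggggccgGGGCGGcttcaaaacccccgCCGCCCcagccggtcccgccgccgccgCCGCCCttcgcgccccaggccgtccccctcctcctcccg
Tgfbr1: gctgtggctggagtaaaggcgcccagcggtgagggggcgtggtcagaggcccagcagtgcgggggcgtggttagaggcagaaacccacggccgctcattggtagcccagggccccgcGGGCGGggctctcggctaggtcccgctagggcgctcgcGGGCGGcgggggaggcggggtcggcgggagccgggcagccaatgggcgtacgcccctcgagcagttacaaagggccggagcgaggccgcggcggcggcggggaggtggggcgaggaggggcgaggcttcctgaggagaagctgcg
Smad3: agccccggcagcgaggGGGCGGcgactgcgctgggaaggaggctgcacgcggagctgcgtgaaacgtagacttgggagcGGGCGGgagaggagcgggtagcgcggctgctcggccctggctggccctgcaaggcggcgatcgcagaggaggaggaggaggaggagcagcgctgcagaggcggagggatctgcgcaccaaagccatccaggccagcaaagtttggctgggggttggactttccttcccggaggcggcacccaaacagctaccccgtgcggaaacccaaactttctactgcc
Tgfb2: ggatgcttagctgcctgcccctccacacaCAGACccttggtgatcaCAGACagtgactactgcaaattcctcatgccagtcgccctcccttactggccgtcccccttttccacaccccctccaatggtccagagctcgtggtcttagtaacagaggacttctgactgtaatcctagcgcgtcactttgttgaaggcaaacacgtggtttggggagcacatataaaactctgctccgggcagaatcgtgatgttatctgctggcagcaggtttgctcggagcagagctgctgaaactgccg
Tgfb1 holds 6 GC boxes, Tgfbr1 and Smad3 hold 2 each, and none of the 3 windows holds a SMAD box. Tgfb2 holds 2 SMAD boxes and no GC box. Eng (2 SMAD boxes), Tgfbr2 (1) and the second Tgfbr1 window (1) likewise hold no GC box. Over all 32851 promoter windows of the table, 49.6% hold CAGAC and 35.7% hold GGGCGG, against 4 of 7 and 3 of 7 here. The palindrome GTCTAGAC and the AP-1 motif TGANTCA, found in 0.213% and 7.81% of all windows, are in none of the 7. These matches describe letters only.

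The ligands differed in how far they varied between lines. Tgfb1 (chromosome 7, 25687002 to 25705077, GRCm38, plus strand), the most widely expressed isoform, stood at 114, 116 and 28.8 CPM in metastasis 5, 3 and 7, at 91.3, 88.5 and 24.5 CPM in CTC 1, 3 and 6, at 76.5, 66.8 and 19.4 CPM in primary 5, 7 and 8, and at 12.3 CPM in the parental line. Each derived group held 1 line under 30 CPM beside the others above 66 CPM, so the 3 derived groups overlapped, while every derived line lay above the parental one. Tgfb3 (chromosome 12, 86056745 to 86079041, minus strand), which acts in palate and mammary gland development, stood at 119, 163 and 52.1 CPM in metastasis 5, 3 and 7, at 92.4, 150 and 34.1 CPM in CTC 1, 3 and 6, at 76.2, 40.9 and 19.4 CPM in primary 5, 7 and 8, and at 34.5 CPM in the parental line. Its highest values were in metastasis 3 and CTC 3, and the groups overlapped.

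Tgfb2 (chromosome 1, 186622792 to 186705989, minus strand), the isoform that depends most on betaglycan for binding, ran differently. It stood at 41.5, 31.9 and 20.1 CPM in metastasis 5, 3 and 7, at 14.8, 19.1 and 19.3 CPM in CTC 1, 3 and 6, at 20.1, 20.6 and 33.2 CPM in primary 5, 7 and 8, and at 39.8 CPM in the parental line. All 3 CTC lines lay under every other line, and the parental line ranked second after metastasis 5. Per kilobase of transcript, the ligands were close together in the parental line, at 10.2 CPM per kb for Tgfb3, 7.85 for Tgfb2 and 6.02 for Tgfb1. In metastasis 5 they were at 35.1, 9.12 and 52.7 CPM per kb in the same order. Genes annotated on the opposite strand of Tgfb2 and Tgfb3 reached at most 0.124 CPM, so little of these counts could be shared with them.

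**Figure D1:**
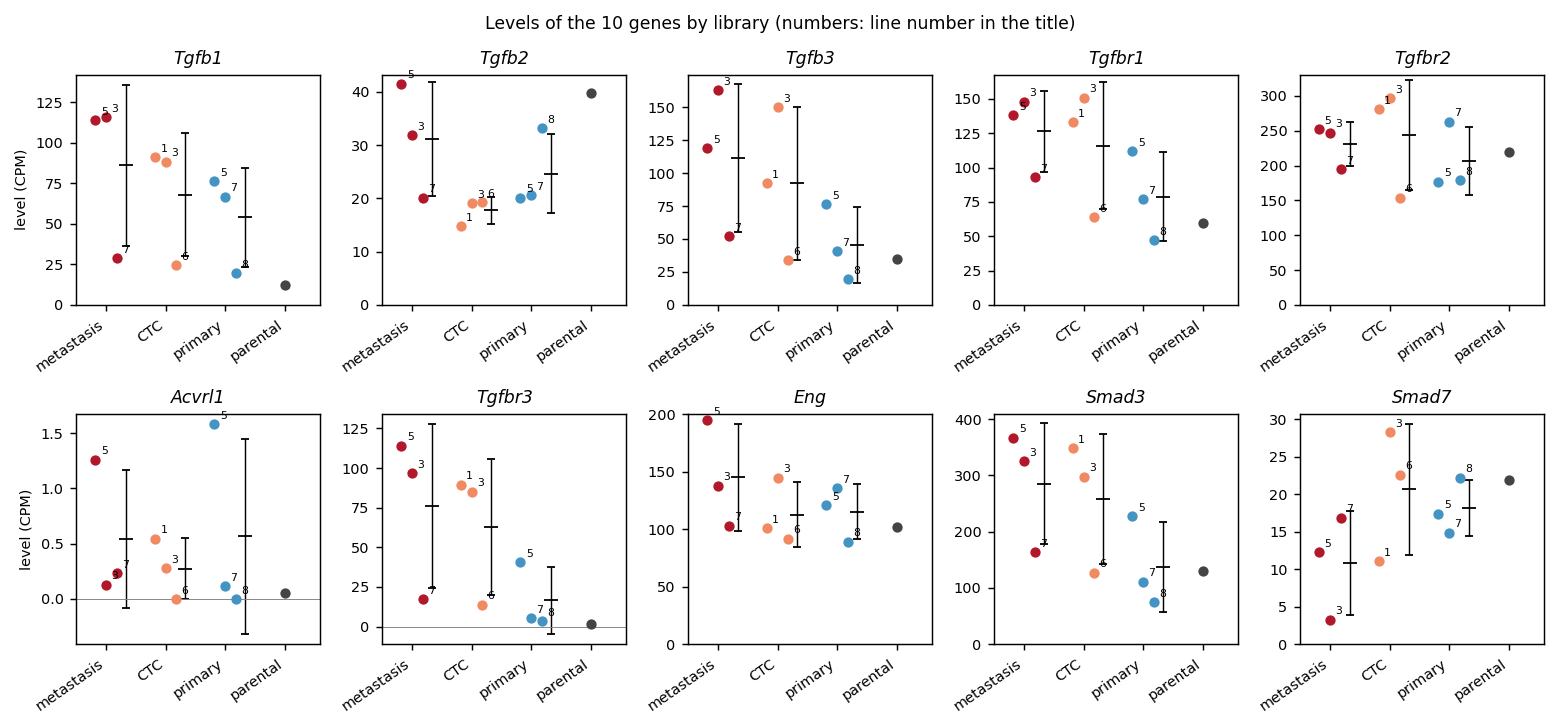
Level of each of the 10 genes in CPM (vertical axis) in every library, by group: points are single lines with their title numbers, and the black mark beside them is the group mean ± SD (n = 3; the parental line has 1 library). Tgfbr3 runs between 1.54 CPM in the parental line and 114 CPM in metastasis 5, while Tgfbr2 stays between 154 and 297 CPM.

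Of the kinase receptors, Tgfbr2 was the steadiest and Tgfbr1 followed the pattern of Tgfb3. Tgfbr2 (chromosome 9, 116084293 to 116175360, minus strand), the type II receptor that binds ligand first, stood at 252, 247 and 195 CPM in metastasis 5, 3 and 7, at 281, 297 and 154 CPM in CTC 1, 3 and 6, at 177, 263 and 179 CPM in primary 5, 7 and 8, and at 219 CPM in the parental line. The highest library was 1.93 times the lowest. Tgfbr1 (chromosome 4, 47353222 to 47414931, plus strand), the type I receptor, stood at 138, 148 and 93.1 CPM in metastasis 5, 3 and 7, at 133, 151 and 63.7 CPM in CTC 1, 3 and 6, at 112, 76.8 and 47.3 CPM in primary 5, 7 and 8, and at 59.5 CPM in the parental line. Within each derived group 1 line was clearly the lowest, metastasis 7, CTC 6 and primary 8. Acvrl1 (chromosome 15, 101128522 to 101145336, plus strand), the type I receptor ALK1 of endothelial cells, was near the floor: it had 97, 10 and 17 counts in metastasis 5, 3 and 7, 41, 18 and 0 in CTC 1, 3 and 6, 113, 9 and 0 in primary 5, 7 and 8, and 4 in the parental line. A count of 0 allows a level of up to 3 counts, which is 0.039 to 0.0465 CPM by library; this limit covers counting error only. Per kilobase Acvrl1 was the lowest of the 10 genes in every library.

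Both co-receptors were expressed, with opposite degrees of spread. Tgfbr3 (chromosome 5, 107106570 to 107289629, minus strand), betaglycan, stood at 114, 96.8 and 17.3 CPM in metastasis 5, 3 and 7, at 89.6, 85.2 and 13.7 CPM in CTC 1, 3 and 6, at 40.7, 5.49 and 3.33 CPM in primary 5, 7 and 8, and at 1.54 CPM in the parental line. Its highest library was 73.9 times its lowest, and 34.3 times among the derived lines, the widest fold of the 9 genes above 1 CPM. All 9 derived lines lay above the parental line; primary 5 lay above metastasis 7 and CTC 6, so the derived groups overlapped. Eng (chromosome 2, 32646595 to 32682669, plus strand), endoglin, stood at 195, 138 and 103 CPM in metastasis 5, 3 and 7, at 101, 145 and 92 CPM in CTC 1, 3 and 6, at 121, 136 and 89.3 CPM in primary 5, 7 and 8, and at 102 CPM in the parental line. Metastasis 5 was the highest, and the other libraries lay within 89.3 to 145 CPM. The last exons of Eng overlap Fpgs, a folate enzyme gene on the opposite strand at 27.8 to 69.4 CPM. Fpgs counts came to at most 61.9% of the Eng count of a library, and with strand use not stated the reads of the overlap cannot be told apart. For Tgfbr3, the overlapping same-strand gene Gm43422 came to at most 0.917% of its count. Among the endothelial markers of the same libraries, Flt1 was at 29.5 to 132 CPM and Egfl7 at 4.32 to 10.5 CPM. Plvap was at up to 4.11 CPM and Tie1 at up to 1.76 CPM, while Pecam1, Cdh5 and Kdr were at or under 1.1 CPM. Their part in the Eng level was not tested.

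Smad3 (chromosome 9, 63646767 to 63757994, minus strand), the receptor-activated transcription factor, stood at 367, 325 and 163 CPM in metastasis 5, 3 and 7, at 348, 298 and 127 CPM in CTC 1, 3 and 6, at 228, 111 and 74.6 CPM in primary 5, 7 and 8, and at 130 CPM in the parental line. Primary 5 stood above the lowest line of the other groups, so the groups overlapped. Smad7 (chromosome 18, 75367529 to 75395935, plus strand), the feedback inhibitor, stood at 12.3, 3.25 and 16.9 CPM in metastasis 5, 3 and 7, at 11.1, 28.3 and 22.6 CPM in CTC 1, 3 and 6, at 17.4, 14.9 and 22.2 CPM in primary 5, 7 and 8, and at 21.9 CPM in the parental line. Metastasis 3, with the highest Tgfb1 and Tgfb3, had the lowest Smad7. Ordered by median level per kilobase, the genes ran Tgfbr2 (41.8 CPM per kb), Smad3 (38.6), Eng (34), Tgfb1 (33.4), Tgfbr1 (23), Tgfb3 (19), Smad7 (7.31), Tgfbr3 (4.81), Tgfb2 (4.37) and Acvrl1 (0.0498). Except for Acvrl1, neighbours in this order had overlapping ranges over the 10 libraries.

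Whether the 10 genes differed between lung metastasis and primary tumour lines was tested with edgeR's quasi-likelihood test on all 19935 genes that passed a filter on low counts, with Benjamini-Hochberg adjustment over all of them. All 10 passed the filter, Acvrl1 through the libraries in which it was present. Tgfbr3 averaged 76.1 ± 51.7 CPM in metastasis lines and 16.5 ± 21 CPM in primary lines (SD, n = 3 each), a log2 change of 2.20 (SE 1.10, 95% interval -0.27 to 4.68). Tgfb3 averaged 111 ± 56 CPM in metastasis lines and 45.5 ± 28.6 CPM in primary lines, a log2 change of 1.29 (SE 0.66, interval -0.19 to 2.77). Smad3 averaged 285 ± 108 CPM in metastasis lines and 138 ± 80.1 CPM in primary lines, a log2 change of 1.05 (SE 0.52, interval -0.12 to 2.22). None of the 3 passed, with edgeR adjusted p of 0.594, 0.595 and 0.594. Eng averaged 145 ± 46.6 CPM in metastasis lines and 116 ± 23.8 CPM in primary lines, a log2 change of 0.33 (SE 0.31, interval -0.37 to 1.04), and Smad7 averaged 10.8 ± 6.92 CPM in metastasis lines and 18.1 ± 3.74 CPM in primary lines, a log2 change of -0.75 (SE 0.57, interval -2.04 to 0.54).

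In this comparison edgeR called 0 of the 10 genes, and 0% of all genes tested; DESeq2 and limma-voom called none of the 10 either, beside 175 and 0 genes in all. None of the 10 had an unadjusted p under 0.05 (8.29% of all genes), and for none were the groups free of overlap (13.6% of all genes). The estimates were positive for 8 of 10 genes, with a median log2 change of 0.50 beside 0.01 over all genes, of which 50.3% were positive. Intervals this wide hold changes of over 4-fold in Tgfbr3, Tgfb3 and Smad3 as well as no change. The estimate for Tgfbr3 was 4.11 without primary 5, the primary line with the most of it, at an edgeR adjusted p of 0.264.

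CTC and primary lines were compared with the same primary libraries, so their results are not independent of those above. Tgfb2 averaged 17.7 ± 2.54 CPM in CTC lines and 24.6 ± 7.43 CPM in primary lines (SD, n = 3 each). It was the one gene of the 10 whose groups did not overlap, against 7.15% of all genes, with a log2 change of -0.47 (SE 0.34, interval -1.25 to 0.30). Tgfbr3 averaged 62.8 ± 42.6 CPM in CTC lines and 16.5 ± 21 CPM in primary lines, a log2 change of 1.93 (SE 1.09, interval -0.52 to 4.38); without primary 5 it was 3.83, at an edgeR adjusted p of 0.512. Eng averaged 113 ± 28.6 CPM in CTC lines and 116 ± 23.8 CPM in primary lines, a log2 change of -0.04 (SE 0.31, interval -0.74 to 0.67). No gene of the 10 passed: edgeR called 0, as it did of all genes (0%), every edgeR adjusted p was at least 0.994, none had an unadjusted p under 0.05 (4.06% of all genes), and DESeq2 and limma-voom called 0 of the 10, beside 66 and 0 genes in all. The estimates were positive for 7 of 10 genes (49.1% of all genes), with a median of 0.29 beside -0.01 over all genes.

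Metastasis lines set against CTC lines share the libraries of both earlier comparisons. Tgfb2 averaged 31.1 ± 10.7 CPM in metastasis lines and 17.7 ± 2.54 CPM in CTC lines (SD, n = 3 each), again without overlap (8.28% of all genes), a log2 change of 0.81 (SE 0.34, interval 0.03 to 1.59). Its unadjusted edgeR p was 0.0423, with 3.29% of all genes under 0.05, and its Benjamini-Hochberg adjusted p was 1. The difference rested most on metastasis 5, without which it was 0.55. Smad7 averaged 10.8 ± 6.92 CPM in metastasis lines and 20.7 ± 8.8 CPM in CTC lines, a log2 change of -0.94 (SE 0.57, interval -2.23 to 0.36). Tgfb1, Tgfb3, Tgfbr1, Tgfbr3 and Smad3 had estimates of 0.12 to 0.34, and Eng one of 0.37 (SE 0.31, interval -0.34 to 1.07); 8 of 10 estimates were positive (49.8% of all genes), with a median of 0.27 beside 0.00. edgeR, DESeq2 and limma-voom each called 0 of the 10. In all, edgeR called 1 gene (0.00502%), DESeq2 27 and limma-voom 1. Any difference among the 3 derived groups was also tested, with 0 of 10 and 0% of all genes called by edgeR, 0 of 10 at an unadjusted p under 0.05 (5.2% of all genes), and edgeR adjusted p between 0.907 and 0.986.

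**Figure D2:**
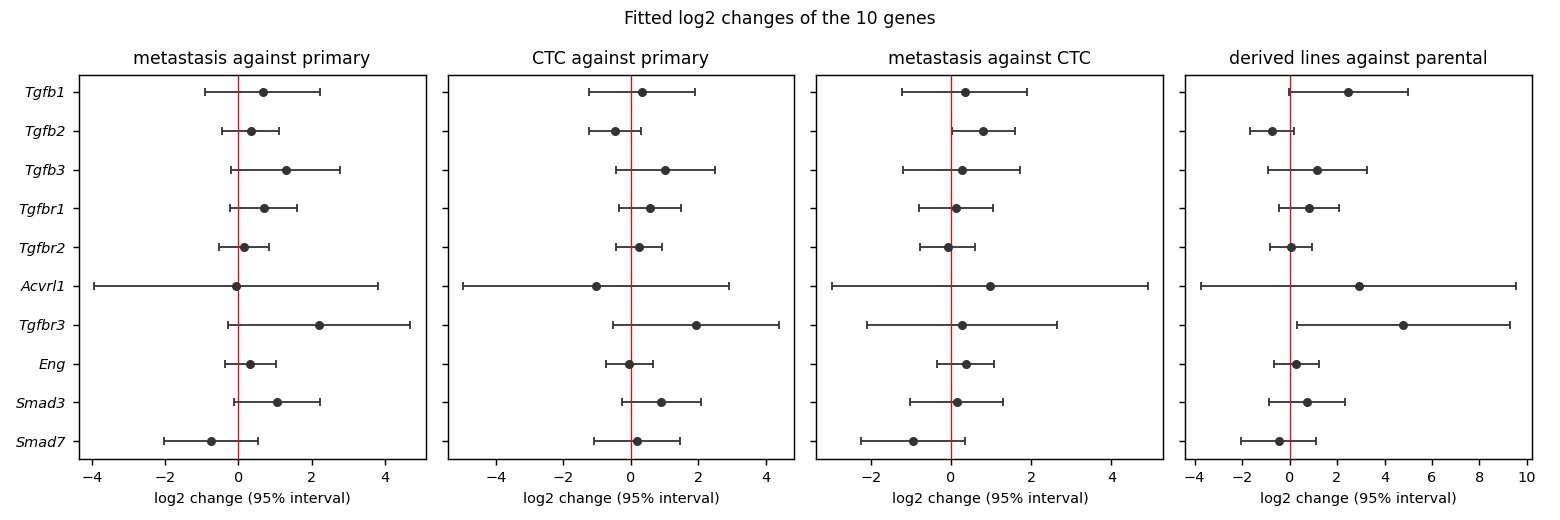
Log2 change of each gene (horizontal axis) with its 95% interval from edgeR in 4 comparisons: metastasis and CTC lines each against primary lines, metastasis against CTC lines, and derived lines against parental. Only Tgfb2 in metastasis against CTC and Tgfbr3 in derived against parental have intervals that leave out 0, and neither passed adjustment over all genes.

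Against the parental line, Tgfbr3 and Tgfb1 had the largest positive estimates among the 9 genes above 1 CPM. The derived lines had 3.33 to 114 CPM of Tgfbr3 and the parental line 1.54 CPM, a log2 change of 4.79 (SE 1.99, interval 0.30 to 9.29; edgeR Benjamini-Hochberg adjusted p = 0.482). The derived lines had 19.4 to 116 CPM of Tgfb1 and the parental line 12.3 CPM, a log2 change of 2.48 (SE 1.11, interval -0.03 to 4.99; edgeR adjusted p = 0.484). These were the 2 genes of 10 with every derived line above the parental one, a pattern held by 14.1% of all genes, and none of the 10 had every derived line below it (15.4%; 29.5% of all genes had either pattern). With 1 parental library, the fit gives that line the spread of the derived groups. edgeR called 0 of the 10 genes and 4 genes in all (0.0201%), and Tgfbr3 alone of the 10 had an unadjusted p under 0.05 (10.3% of all genes). Estimates were positive for 8 of 10 genes (53.9% of all genes), with a median of 0.77 beside 0.10. For the same contrast limma-voom called 0 of the 10 and 23 genes in all. DESeq2 called Tgfbr3, with a log2 change of 4.78 and an adjusted p of 0.0133, among 671 genes in all, against the 4 of edgeR. The remaining estimates ran between -0.74 for Tgfb2 and 1.17 for Tgfb3, apart from Acvrl1 at 2.92 (SE 2.94). Acvrl1 had 4 counts in the parental line and 0 to 113 in the derived lines.

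Across all 10 libraries, Tgfb1, Tgfb3, Tgfbr1, Tgfbr3 and Smad3 were ordered alike: metastasis 5, metastasis 3, CTC 1, CTC 3 and primary 5 held ranks 1 to 5 for each of these 5 genes. The Pearson correlation of log2 CPM over the 10 libraries was 0.983 for Tgfb3 with Tgfbr1, 0.958 for Tgfbr1 with Smad3 and 0.932 for Tgfbr1 with Tgfbr3. Smad7 ran against the other 9 genes, at -0.548 to -0.181, and Tgfb2 gave -0.271 to 0.295. These coefficients describe libraries that share groups and possibly title numbers. Genes outside the 10 reached higher values, such as Ttbk2 with Tgfbr1 at 0.995 and Dlg3 with Tgfb3 at 0.991. The epithelial adhesion gene Cdh1, chosen after its values were seen, was at 88.7, 77.3 and 391 CPM in metastasis 5, 3 and 7, at 94.2, 77.7 and 150 CPM in CTC 1, 3 and 6, at 107, 627 and 419 CPM in primary 5, 7 and 8, and at 366 CPM in the parental line. Of 11 epithelial markers tested, 10 had negative estimates in metastasis against primary lines (median log2 change -1.99) and 9 in CTC against primary lines (-2.45). An unadjusted p under 0.05 was reached by 5 and 8 of the 11, beside 8.29% and 4.06% of all genes, and edgeR called none. Of 10 mesenchymal-state genes tested, 7 had positive estimates in both comparisons (medians 0.18 and 0.28), and none was called. Pdgfra, a fibroblast marker, was at 269, 126 and 11.3 CPM in metastasis 5, 3 and 7, at 72.3, 141 and 10.1 CPM in CTC 1, 3 and 6, at 58.1, 4.84 and 4.05 CPM in primary 5, 7 and 8 and at 4.45 CPM in the parental line. Summed over the 13 fibroblast and pericyte markers, the level was 17.5 to 305 CPM in metastasis lines, 12.2 to 143 in CTC lines, 5.21 to 77.9 in primary lines and 6.18 in the parental line. Pdgfrb was at 18.7 CPM in metastasis 5 and 15.3 CPM in primary 5, Dcn was at 12.4 CPM in metastasis 5, and Col1a1 reached at most 2.32 CPM; these were chosen after their values were seen. Of the 10 fibroblast and pericyte markers tested, 9 had positive estimates in metastasis against primary lines (median log2 change 1.55), 5 in CTC against primary lines (-0.05), 9 in metastasis against CTC lines (2.08) and 8 in derived lines against the parental line (3.62). edgeR called none of them, and in that order 0, 2, 3 and 1 had an unadjusted p under 0.05 (8.29%, 4.06%, 3.29% and 10.3% of all genes). Of 8 endothelial markers tested, 6, 6, 4 and 6 had positive estimates in the same order, and none was called. Flt1, the most abundant endothelial marker at up to 132 CPM, carried most of that list's sum of 43.6 to 144 CPM in metastasis lines, 54.9 to 138 in CTC lines, 51.5 to 71.5 in primary lines and 37.4 in the parental line. The part of these marker levels in the spread of the 5 genes was not tested.

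Spread within groups separated the genes. The pooled within-group SD on the log2 scale was 0.374 for Tgfbr2, 0.38 for Eng and 0.406 for Tgfb2, below the median of 0.641 over all genes tested, and 1.66 for Tgfbr3, 1.11 for Tgfb1 and 0.98 for Tgfb3, above it. Among 10279 named genes with a mean log2 CPM of at least 1, the genes most like Tgfbr3 over the 10 libraries were Ltbp4, a latent-TGF-beta-binding protein (r = 0.99), and Ttc39a (r = 0.989). Ltbp4 itself was at 354, 259 and 93.6 CPM in metastasis 5, 3 and 7, at 274, 202 and 78.2 CPM in CTC 1, 3 and 6, at 179, 31.8 and 34.2 CPM in primary 5, 7 and 8, and at 18.4 CPM in the parental line. Eng was most like Anxa6, a membrane-binding annexin (r = 0.962), and Igsf3 (r = 0.946). The closest partners were Abhd1 (0.989) and Limd2 (0.987) for Tgfb1, Dlg3 (0.991) and F2r, the thrombin receptor (0.983), for Tgfb3, and Ttbk2 (0.995) and Ttyh3 (0.994) for Tgfbr1. For Smad3 they were Zfp260 (0.987) and Pik3ip1 (0.985), for Tgfbr2 Csnk1d (0.942) and Arpc3 (0.934), for Tgfb2 Ext1, a heparan sulfate polymerase (0.886), and Unc13a (0.877), for Smad7 Prrc2a (0.926) and Ccdc93 (0.918), and for Acvrl1 Capn1 (0.935) and Sfrp1 (0.926).

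The transcript table resolved the receptor and ligand isoforms. Blocks of sequence that set them apart are shown, from GENCODE M21 transcripts on GRCm38, with capitals marking a stop codon. The shares below are of whole transcripts and do not count these blocks alone. The first is a 75-base coding exon of Tgfbr2-202 that Tgfbr2-201 lacks (chr9:116158271-116158345, minus strand), known in human as the insert of the longer type II receptor. The next is an 84-base exon of Tgfb2-206 that Tgfb2-201 lacks (chr1:186690721-186690804, minus strand), then the coding bases of Eng-202 in the last intron of Eng-201 (chr2:32681298-32681386, plus strand), which give endoglin its short cytoplasmic tail, and last the 12 bases that Tgfbr1-202 lacks (chr4:47393247-47393258, plus strand).
Tgfbr2-202 exon: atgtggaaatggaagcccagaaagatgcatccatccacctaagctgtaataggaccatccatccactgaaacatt
Tgfb2-206 exon: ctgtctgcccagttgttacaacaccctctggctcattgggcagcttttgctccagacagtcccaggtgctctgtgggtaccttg
Eng-202 retained bases: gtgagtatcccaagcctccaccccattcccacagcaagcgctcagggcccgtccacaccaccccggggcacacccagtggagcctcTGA
Tgfbr1-201 bases: gacctttttcag
Tgfbr2-202 codes for 592 codons and Tgfbr2-201 for 567. Shares are estimated counts as StringTie split them among overlapping transcripts, and Wilson 95% intervals cover counting error only. The transcripts also differ in length outside the blocks. Tgfbr1-201 has 5756 bases and Tgfbr1-202 2861, Tgfb2-201 has 5116 and Tgfb2-206 3485, and Eng-201 has 3422 and Eng-202 3021. Their shares are therefore not a measure of the blocks alone.

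The form of Tgfbr2 without the insert made up 31%, 32% and 3.18% of the Tgfbr2 count in metastasis 5, 3 and 7, 33.4%, 26.6% and 32.9% in CTC 1, 3 and 6, 26.9%, 36% and 3.82% in primary 5, 7 and 8, and 36.6% in the parental line. Metastasis 7 (interval 2.9 to 3.48%) and primary 8 (3.5 to 4.16%) stood far below the other 8 libraries. There the level of Tgfbr2-201 was 4.61 CPM in metastasis 7 and 5.74 CPM in primary 8, against 38.7 to 77.4 CPM in the rest, while Tgfbr2-202 was at 141 and 145 CPM, within its range of 80.7 to 176 CPM elsewhere. Tgfbr2-202 also has a longer 3′ end, and the share counts both differences.

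Tgfb2-206, the longer form of the ligand precursor, took 24.1%, 17.4% and 10.7% of the Tgfb2 count in metastasis 5, 3 and 7, 20.7%, 11.4% and 19% in CTC 1, 3 and 6, 16.2%, 17.4% and 3.31% in primary 5, 7 and 8, and 0.213% in the parental line (6 of 2811 counts, interval 0.0979 to 0.465%). The parental share lay below that of every derived line. Its level had a log2 change of 5.44 in derived lines against the parental line (SE 1.40). It did not pass adjustment over the 78270 transcripts tested (edgeR, Benjamini-Hochberg adjusted p = 0.379); 0.0677% of all transcripts passed and 7.56% had an unadjusted p under 0.05, as it did. The short-tailed Eng-202 took 9.74%, 10.5% and 9.97% of the Eng count in metastasis 5, 3 and 7, 12.8%, 13.3% and 16.1% in CTC 1, 3 and 6, 6.56%, 16% and 11.4% in primary 5, 7 and 8, and 15.7% in the parental line. All 3 metastasis lines lay below all 3 CTC lines in this share, a description with no test, and the primary lines spanned both. Tgfbr1-202 ran between 18.4% and 37.2% of its gene, highest in the parental line. Smad7-202 was found at 40.9% in primary 5 and 26.1% in the parental line, and had a count of 0 in the other 8 libraries, with Wilson upper bounds of 0.21 to 1.53%.

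**Figure D3:**
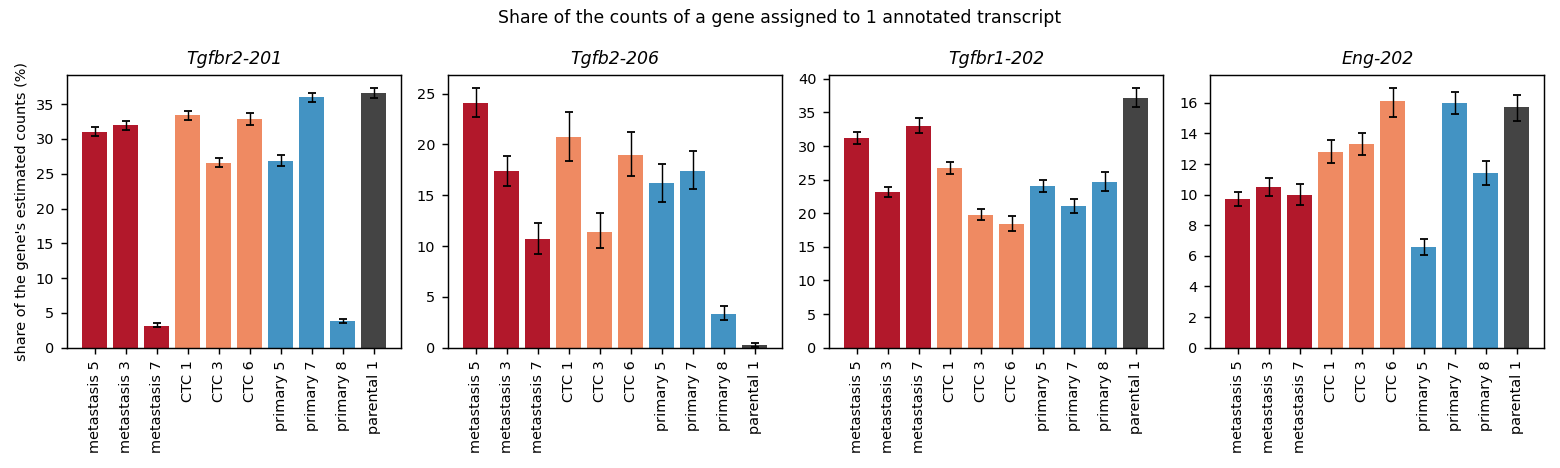
Share of the gene's estimated count (percent, vertical axis) that fell on Tgfbr2-201, Tgfb2-206, Tgfbr1-202 and Eng-202 in each library; bars start at 0 and error bars are Wilson 95% intervals for counting error. Tgfbr2-201 is at 3.18% in metastasis 7 and 3.82% in primary 8, and Tgfb2-206 at 0.213% in the parental line.

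Genes that release or hold latent TGF-beta were followed as a list of 17, of which 16 were tested; edgeR called none in any comparison. In metastasis against primary lines 10 were higher and 6 lower (median log2 change 0.56, beside 0.01 over all genes), in CTC against primary lines 6 and 10 (-0.21), in metastasis against CTC lines 13 and 3 (0.70), and in derived lines against the parental line 13 and 3 (1.53). In that order, 2, 2, 3 and 7 had an unadjusted p under 0.05, beside 8.29%, 4.06%, 3.29% and 10.3% of all genes. Itgb6, the epithelial integrin subunit that activates TGF-beta1 and TGF-beta3, was at 0.312, 0.118 and 0.545 CPM in metastasis 5, 3 and 7, at 0.08, 0.17 and 0.366 CPM in CTC 1, 3 and 6, at 0.627, 8.09 and 2.1 CPM in primary 5, 7 and 8, and at 2.61 CPM in the parental line. All 3 primary lines lay above the other derived lines. The log2 changes were -3.47 (SE 1.02) for metastasis and -4.13 (SE 1.06) for CTC lines against primary lines, with edgeR adjusted p of 0.594 and 0.994. Itgb5, the subunit of the vitronectin-binding integrin, had log2 changes of 0.90 (SE 0.39) in metastasis against primary and 1.06 (SE 0.39) in metastasis against CTC lines. Mmp9, a gelatinase, had -1.36 (SE 0.47) in CTC against primary and 1.30 (SE 0.47) in metastasis against CTC lines. Against the parental line, Ltbp2 had 3.63 (SE 1.32) and Mmp2 2.57 (SE 0.86), with edgeR adjusted p of 0.472 and 0.471. Ltbp2 was at 8.54 CPM in the parental line and 25 to 277 CPM in derived lines. Mmp2 was low, at 0.17 CPM in the parental line and 0.449 to 2.67 CPM in derived lines.

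The list of 20 other SMADs and regulators was split evenly, with 11 higher and 9 lower in metastasis against primary lines, 9 and 11 in CTC against primary lines, 10 and 10 in metastasis against CTC lines, and 9 and 11 in derived lines against the parental line. edgeR called none, and in that order 4, 2, 1 and 1 had an unadjusted p under 0.05 (8.29%, 4.06%, 3.29% and 10.3% of all genes). Ski, a SMAD co-repressor, was at 226, 214 and 224 CPM in metastasis 5, 3 and 7, at 174, 192 and 189 CPM in CTC 1, 3 and 6, at 174, 114 and 103 CPM in primary 5, 7 and 8, and at 147 CPM in the parental line. Every metastasis line lay above every other library, and the log2 change against primary lines was 0.76 (SE 0.24, edgeR adjusted p = 0.594). Smurf2, a ubiquitin ligase that works with SMAD7, was at 39.9, 45.8 and 81.3 CPM in metastasis 5, 3 and 7 and at 87.6, 111 and 103 CPM in primary 5, 7 and 8, a log2 change of -0.85 (SE 0.32). Zfyve9 (SARA, which presents SMADs to the receptor) was at 33.3, 1.99 and 2.51 CPM in metastasis 5, 3 and 7. In CTC 1, 3 and 6 it was at 0.947, 0.201 and 1.34 CPM, so metastasis 5 stood far above the rest. Skil, a relative of Ski, had -0.92 (SE 0.32) in derived lines against the parental line, and Zfyve9 had 3.92 (SE 1.28) in metastasis against CTC lines. Neither passed, with edgeR adjusted p of 0.472 and 1.

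Most TGF-beta target genes had negative estimates in CTC against primary lines, and the other comparisons were split. Of 35 targets, 33 were tested and edgeR called none: 15 were higher and 18 lower in metastasis against primary lines (median log2 change -0.03), 6 and 27 in CTC against primary lines (-0.75, beside -0.01 over all genes), 18 and 15 in metastasis against CTC lines (0.19), and 17 and 16 in derived lines against the parental line (0.12, beside 0.10). In the same order, 11, 10, 5 and 8 of them had an unadjusted p under 0.05, beside 8.29%, 4.06%, 3.29% and 10.3% of all genes. Bhlhe40, a helix-loop-helix repressor, was at 35.3, 39.1 and 26.3 CPM in metastasis 5, 3 and 7, at 28.4, 37.2 and 36.3 CPM in CTC 1, 3 and 6, at 53.7, 241 and 204 CPM in primary 5, 7 and 8, and at 226 CPM in the parental line. The primary lines lay above all metastasis and CTC lines, with log2 changes of -2.31 (SE 0.49) and -2.29 (SE 0.49) and edgeR adjusted p of 0.594 and 0.994. Pmepa1, a target that restrains SMAD signalling, was at 46, 39.3 and 59.1 CPM in metastasis 5, 3 and 7, at 12.3, 27.5 and 120 CPM in CTC 1, 3 and 6, at 52.1, 258 and 294 CPM in primary 5, 7 and 8, and at 262 CPM in the parental line. Pdgfb, a growth factor, had a log2 change of -2.48 (SE 0.61, edgeR adjusted p = 0.994) in CTC against primary lines. In metastasis against CTC lines the targets with the smallest p were positive, Timp3 at 9.22 (SE 2.04) and Col1a2 at 3.46 (SE 0.93). Both were low, at up to 2.22 and 1.2 CPM in metastasis 7, and neither passed.

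Of 15 BMP and ALK1 targets, 13 were tested, with 7 higher and 6 lower in metastasis against primary lines, 5 and 8 in CTC against primary lines, 6 and 7 in metastasis against CTC lines and 10 and 3 in derived lines against the parental line. edgeR called none, and 2, 2, 1 and 2 had an unadjusted p under 0.05 (8.29%, 4.06%, 3.29% and 10.3% of all genes). Id2, which blocks differentiation factors, was at 74.5, 181 and 17.5 CPM in metastasis 5, 3 and 7, at 134, 176 and 25.6 CPM in CTC 1, 3 and 6, at 39.1, 13.7 and 11.9 CPM in primary 5, 7 and 8, and at 7.64 CPM in the parental line. It had log2 changes of 2.08 (SE 0.92) and 2.37 (SE 0.93) in metastasis and in CTC lines against primary lines, with edgeR adjusted p of 0.594 and 0.994. Hey2 went the other way in the same comparisons, at -8.84 (SE 2.72) and -6.09 (SE 2.21), with the same adjusted p. Its level was 0, 0.171 and 2.2 CPM in primary 5, 7 and 8, and 2.07 CPM in the parental line. Every metastasis line was at 0 and the CTC lines were at most at 0.0305 CPM, so both folds rest mainly on primary 8. Of the 28 BMP, activin and GDF ligands and antagonists, 18 were tested, with 6 higher and 12 lower in metastasis against primary lines (median log2 change -0.80) and 4 and 14 in CTC against primary lines (-1.37). Again edgeR called none, and 1 and 3 had an unadjusted p under 0.05 (8.29% and 4.06% of all genes). Inhba, the activin A subunit, had a log2 change of -2.36 (SE 0.88, edgeR adjusted p = 0.994) in CTC against primary lines. Of 11 BMP and activin receptors, 10 were tested, 7 higher and 3 lower in metastasis against primary lines and 6 and 4 in CTC against primary lines. None was called, and 1 and 0 had an unadjusted p under 0.05 (8.29% and 4.06% of all genes).

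**Figure D4:**
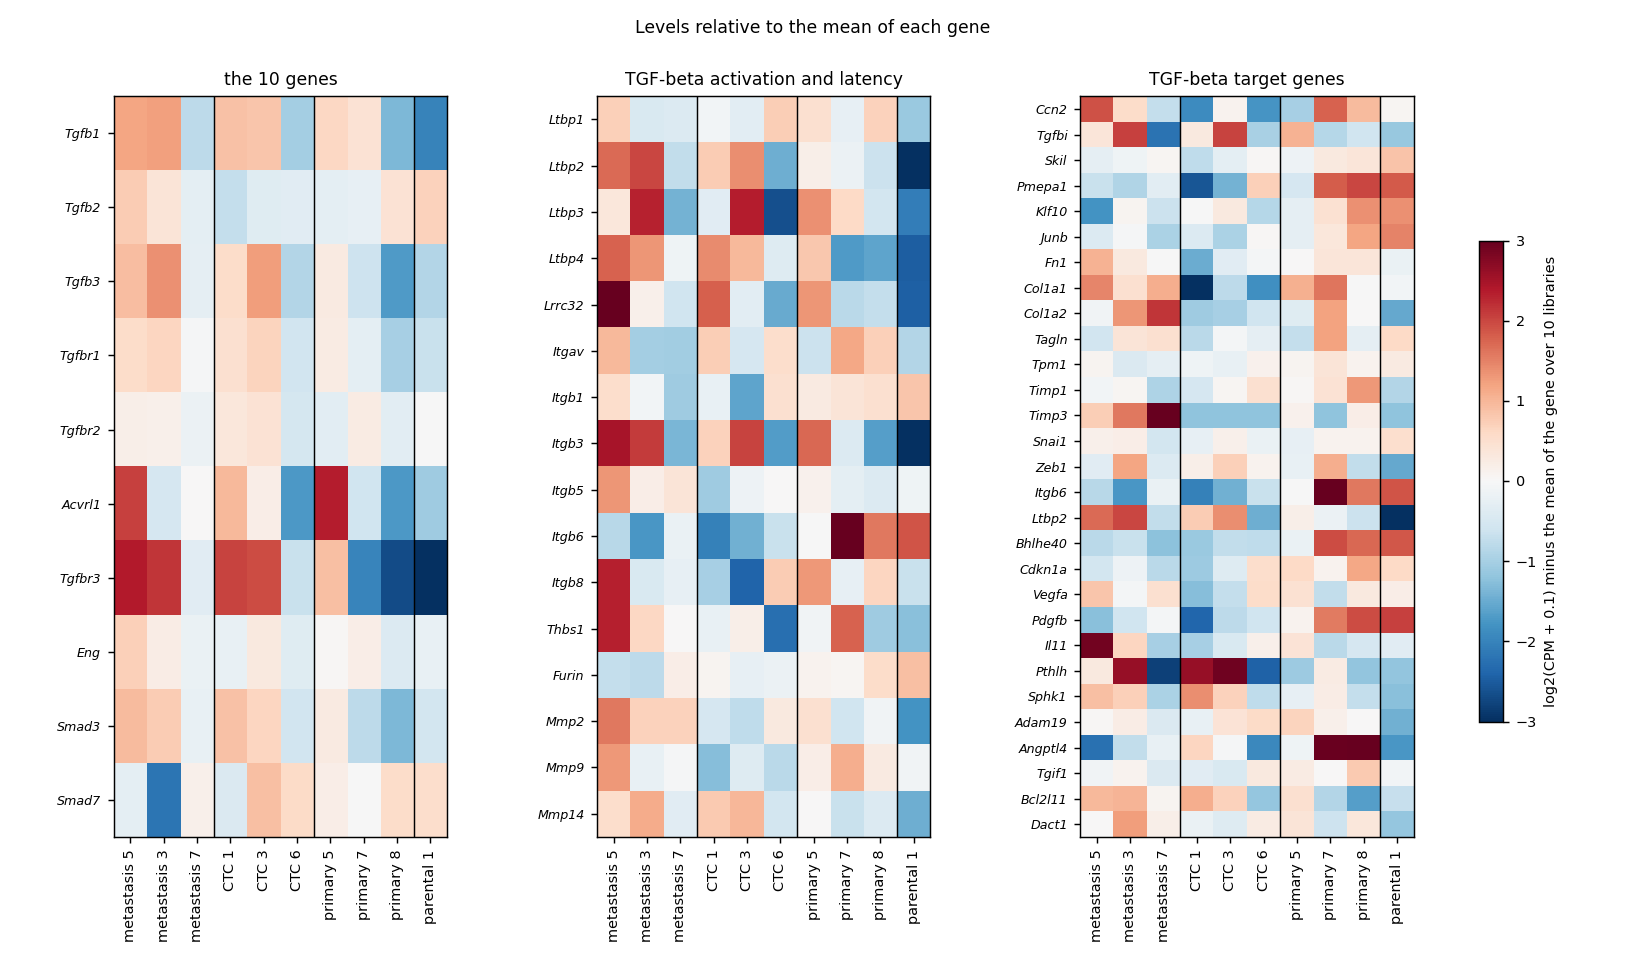
Level of each gene relative to its own mean over the 10 libraries (log2 of CPM plus 0.1, colour limited at ±3), for the 10 genes, the latency and activation list and the TGF-beta targets that reach at least 1 CPM in some library, 1 target not being shown. Rows are genes and columns are libraries; metastasis 5 and 3, CTC 1 and 3 and primary 5 are high for Tgfb1, Tgfb3, Tgfbr1, Tgfbr3 and Smad3, while Pmepa1, at 258 and 294 CPM in primary 7 and 8, runs the other way.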

How the data were processed

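RNA was measured by paired-end sequencing of 1 library per line. The authors deposited estimated counts for genes and for transcripts, without scaling. The submitters' processing notes name GRCm38, HISAT2 2.1.0, StringTie 2.0.3 and DESeq2 1.26.0. Strand use and the annotation release are not given in the sources used here. Each of the 141692 Ensembl transcripts occurs in GENCODE M21, used for positions and lengths. From 72544 entries, the 17127 assembled ones were left out; 1 incomplete transcript entry was dropped.

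Counts were tested with edgeR 4.0.16 (R 4.3.3), quasi-likelihood, TMM factors, default expression filter, 4 groups in 1 fit of 10 libraries, Benjamini-Hochberg adjustment and a threshold of 0.05; the common biological coefficient of variation was 0.606. Per the labels the replicates are separate lines, and p-values cover the spread among these alone. DESeq2 1.42.0, limma-voom (limma 3.58.1), other scalings and filters, title-number blocks and leaving out each derived line were alternatives. Correlations used log2 CPM with a prior count of 2.

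The values of 1 target gene are not reported here. The genes and lists were chosen with earlier results of these data known. The text names all 10 genes, from each list genes among the 2 smallest p per comparison, top markers, and the 2 most alike genes. Cdh5, Kdr, Krt5, Krt8 and Krt19 were named outside this rule, after their values were seen. Same-numbered lines (primary 5 and metastasis 5, primary 7 and metastasis 7, CTC 3 and metastasis 3) were compared in their deviations from group means. They correlated at 0.319, 0.12 and 0.406, all above 0.1, against a median of -0.0493 in other pairs. Some differently numbered pairs were higher, CTC 6 with metastasis 7 at 0.506 and primary 8 with CTC 6 at 0.43. These values do not single out the same-numbered pairs, and the numbers were used as pairing in the block alternatives only. CTC and primary lines share no number.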

Additional observations from a re-analysis of the deposited data

How the results depend on the processing

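The count of the 10 genes called stayed at 0 in all 5 comparisons under every alternative run, except that DESeq2 called 1 (Tgfbr3) in derived lines against the parental line. Of 376 log2 changes under settings other than leaving out a line, 362 kept their direction and side of the threshold, 1 newly passed (Tgfbr3 with DESeq2) and 13 turned. Pairing the lines by title number changed no call. With the number as a fixed replicate block (1 residual degree of freedom), the turned values were -0.31 for Tgfb1 in metastasis and -0.69 in CTC against primary lines, -0.05 for Tgfbr1 and -0.09 for Eng in metastasis against CTC lines, 0.24 for Eng in CTC against primary lines, and 0.25, 1.35 and -1.10 for Acvrl1 in metastasis and in CTC against primary lines and in metastasis against CTC lines. With the number as a random block (limma-voom, correlation 0.484) they were -0.01 for Tgfbr2 in derived lines against parental, and 1.16 and 0.52 for Acvrl1 in metastasis and CTC against primary lines; limma-voom without a block gave Acvrl1 1.66 and 0.00 there. The cause was not tested. A stricter filter left no value for Acvrl1.

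Leaving out 1 derived line turned 25 of 360 values. In metastasis against CTC lines the ranges were -0.06 to 0.75 for Tgfb1, -0.12 to 0.82 for Tgfb3, -0.17 to 0.36 for Tgfbr1, -0.32 to 0.08 for Tgfbr2, -0.60 to 1.95 for Acvrl1, -0.20 to 0.75 for Tgfbr3 and -0.18 to 0.43 for Smad3. In CTC against primary lines they were -0.07 to 0.73 for Tgfb1, -2.01 to 2.18 for Acvrl1, -0.26 to 0.10 for Eng and -0.11 to 0.49 for Smad7. Acvrl1 ranged over -1.63 to 3.15 in metastasis against primary lines, and Tgfbr2 over -0.01 to 0.14 in derived lines against parental. Acvrl1 had the fewest counts, 0 to 113 per library, and depth limits it most.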
